A study of Mus musculus with 2 samples.

Results

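Cytosolic ribosomal protein genes encode the protein components of the ribosomes that translate nuclear-encoded mRNA. They were chosen by symbol: genes named Rpl or Rps with a number and an optional a, x, l, al or l1 suffix, together with Rplp0, Rplp1, Rplp2 and Rpsa, and with at least 1 transcript annotated as protein-coding. The rule selected 83 of 55536 annotated genes, of which 31 belong to the small subunit, 49 to the large subunit and 3 to its stalk. Of these, 7 symbols are paralogues of another gene of the set, and the other 76 are called core genes here. Another 4 genes match by symbol but have no protein-coding transcript (Rpl32l, Rpl6l, Rps12l1 and Rps4l), and Rps4l was the highest of these at 17.84 and 16.04 TPM. The rule also leaves out 4 genes whose products sit on the ribosome, among them Rps3a1, Fau and Rack1.

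The RNA was total RNA of the hippocampus at 10 days of age, from B6CASTF1/J mice (hybrids of C57BL/6J and CAST/EiJ). There was 1 group with 2 biological replicates and no treatment, each library started from 300 ng of RNA with ERCC spike-ins. Both libraries carry the label male, and each label names 3 males without stating whether their RNA was pooled. Sex-linked genes of 1 library went against that label. Xist, the RNA that coats the inactive X chromosome, had 25 expected counts in replicate 1 and 30841 in replicate 2, and the Y-linked helicase gene Ddx3y had 2164 and 0. The second is therefore called the library labelled male, replicate 2, or replicate 2 for short. Depth was 32035705 and 29747193 expected counts, of which the ribosomal protein genes held 0.735% ± 0.00817 (SD, n = 2). Hippocampal neuron markers were all detected, 8 of 8 at 1 TPM or more in both libraries. With bulk tissue, more RNA per cell and more cells of a type cannot be told apart.

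A ribosome carries most of these proteins in single copies, while the acidic stalk proteins Rplp1 and Rplp2 are present as dimers around Rplp0. The mRNAs are abundant in growing cells, and most begin with a C followed by a run of pyrimidines, the terminal oligopyrimidine (TOP) motif, through which the mTOR pathway controls their translation. The family is also a source of many processed pseudogenes, intronless copies of the mRNA inserted elsewhere in the genome, and reads that match both a gene and such a copy have no unique origin.

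RefSeq start sites (build GRCm38.p6) were at hand for 63 of the 83 genes. A C followed by at least 4 further C or T bases stood exactly at an annotated start in 13 of the 63 (20.6%), against 2.71% of 16522 protein-coding genes searched the same way. Allowing the run to begin within 5 bases of the start gave 29 of 63 (46.0%) against 21.8%. Only the strand with the sequence of the mRNA was read, and a match is a run of letters, not a measured start. The windows below hold 15 bases before the start and 15 from the start on, with the pyrimidine run in capitals. They show the longest run at a start (Rpl15), a stalk gene (Rplp2), the translation-regulated Rps6, the highly expressed Rpl38 and, without a run, Rpl41, the highest of the set in alignment-based TPM.
Rpl15 (chr14:18270972-18271001, minus strand): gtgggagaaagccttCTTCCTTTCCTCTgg
Rplp2 (chr7:141447636-141447665, plus strand): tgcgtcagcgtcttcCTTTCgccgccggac
Rps6 (chr4:86857353-86857382, minus strand): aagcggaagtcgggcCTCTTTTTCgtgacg
Rpl38 (chr11:114668565-114668594, plus strand): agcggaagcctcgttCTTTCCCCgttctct
Rpl41 (chr10:128549154-128549183, minus strand): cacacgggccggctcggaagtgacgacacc

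Ribosomal protein mRNAs were abundant, and the core genes spread less in level than all detected nuclear protein-coding genes. Levels are in TPM, an abundance that divides counts by transcript length and scales each library to the same total. The median over the 83 genes was 225.3 TPM in replicate 1 and 222.4 in replicate 2 (mean 223.9 ± 2.06 SD), against 15.7 ± 0.0919 for the 13062 nuclear protein-coding genes at 1 TPM or more in both libraries. Small subunit core genes had a median of 249.0 ± 3.13 TPM (30 genes), large subunit core genes 219.0 ± 5.17 (43 genes) and stalk genes 294.7 ± 5.84 (3 genes). In FASTQ-based TPM the order of the subunits turned, with 445.3 ± 12.2 for the small and 468.0 ± 5.69 for the large subunit. Mitochondrial ribosomal protein genes, which build the separate ribosome of that organelle, had a median of 24.3 ± 0.615 TPM (78 genes). The 83 cytosolic genes took 1.97% ± 0.0227 of all alignment-based TPM and 3.79% ± 0.0229 of FASTQ-based TPM.

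In alignment-based TPM, Rpl41, which encodes the smallest protein of the ribosome, was highest at 1107 and 1045 TPM. Rplp1, an acidic stalk protein, followed at 732.0 and 706.2 TPM, and its partners Rplp2 and Rplp0 had 290.6 and 298.9, and 205.3 and 205.7 TPM. Of the small subunit, Rps29 (538.3 and 533.5 TPM) and Rps28 (441.4 and 435.5 TPM) were highest in alignment-based TPM, but Rps24 was in FASTQ-based TPM (871.1 and 855.6). Rpl38 (455.5 and 448.5 TPM) and Rpl13a (441.8 and 438.3 TPM) completed the highest 6. The 4 genes below Rplp1 lay between 435.5 and 538.3 TPM. Ribosome genes outside the symbol rule lay in the range of the set. Fau, a fusion of a ubiquitin-like protein with a small subunit protein, had 294.2 and 295.8 TPM. Rps3a1, of the small subunit, had 207.3 and 203.0 TPM, and Rack1, a scaffold protein on the small subunit, 162.8 and 148.7 TPM.

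At the low end stood 3 paralogues at or near 0, which are described with their pairs, then Rps27l (23.4 and 24.9 TPM), Rpl7l1 (24.4 and 25.3 TPM) and Rpl27 (29.98 and 28.80 TPM). Rpl27 is a core protein of the large subunit, and its level was far under the 10th percentile of core genes, 125.1 ± 1.00 TPM. The spread over core genes, as the SD of log2(TPM + 0.1), was 0.794 ± 0.000445, against 1.80 ± 0.00410 for all detected nuclear protein-coding genes and 0.791 ± 0.00600 for the mitochondrial ribosomal protein genes. Large subunit genes spread more (SD 0.904) than small subunit genes (SD 0.518), a description for which no test was run. Both values are from alignment-based TPM and were not computed with copies added or from FASTQ-based TPM. Adding to each gene the reads of its copies, as set out below, lowered the SD over core genes to 0.536 ± 0.00156. It also brought the lowest core gene, then Rpl22, to 127.0 and 134.5 TPM. FASTQ-based TPM gave an SD of 0.654 ± 0.0164.

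**Figure D1:**
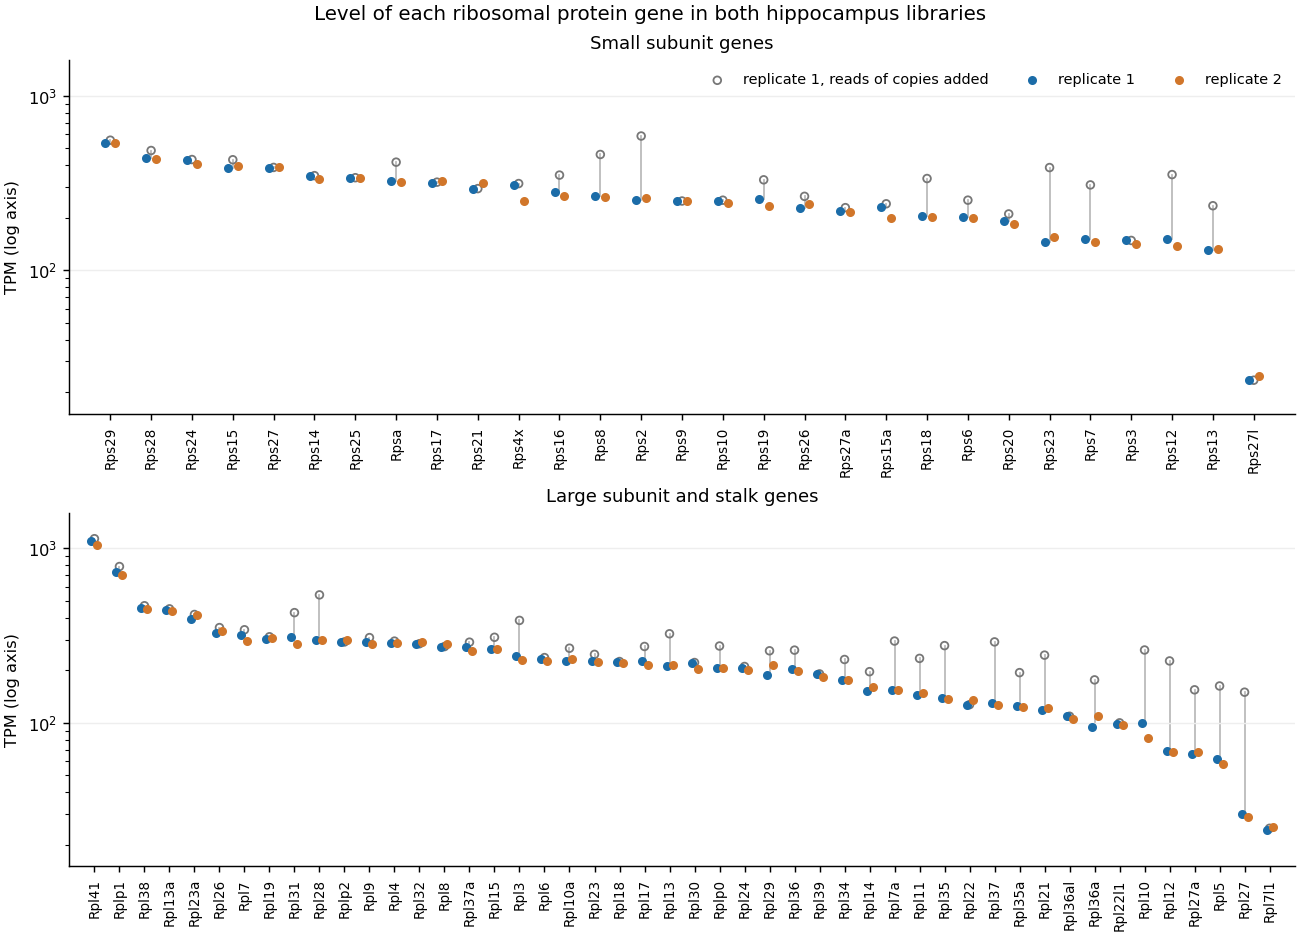
TPM (log axis) of 77 of the ribosomal protein genes with a mean of at least 1 TPM, in replicate 1 (blue) and replicate 2 (orange), ordered by level within the small subunit (top) and the large subunit with the stalk (bottom). Open circles give replicate 1 after reads of copies were added. For most genes the libraries lie side by side, and the long grey lines belong to genes such as Rpl27 (29.98 to 149.7) and Rps2 (252.3 to 587.1).

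Many reads of the family were assigned to pseudogenes, and how many depended on the quantification. Each library was deposited with 2 quantifications of the same reads, 1 from alignments (expected counts) and 1 from the FASTQ file (estimated counts). A pseudogene was assigned to a gene where its best BLAST match was that gene's transcript, at 90% identity or more over 50% or more of the pseudogene. This gave 1151 pseudogenes for 80 of the 83 genes, and Rpl3l and Rpl39l were among those with none. They held 18.8% and 19.3% of the family's counts by alignments (mean 19.0% ± 0.345) and 8.93% and 9.01% by the FASTQ route (8.97% ± 0.0553). Counting copies of any annotation class, small RNAs apart, raised the shares to 21.1% ± 0.335 and 9.74% ± 0.0248. This search matched against transcripts of the 83 genes only, where the first took the best match over all protein-coding transcripts. It added intronless copies annotated as protein-coding, such as Rpl10-ps3 and Rps12-ps3. Some pseudogenes were added too, such as Gm10095, given to Rpl21 (183.4 and 19.1 counts by alignments). The copies of any class are used from here on.

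In all, 10 genes had over 50% of their family's counts on copies in both libraries by alignments, and 0 did so from the FASTQ route: Rpl5, Rpl10, Rpl12, Rpl27, Rpl27a, Rpl37, Rps2, Rps7, Rps12 and Rps23. At over 20% the numbers were 31 and 11. Copies were counted for this family only, so no share over all genes stands beside these numbers. Rpl27 was the most affected, with 372.9 and 329.9 counts of its own and 1489 and 1318 on copies, a share of 79.97% and 79.98%. Its copies Gm11518 and Rpl27-ps3 had 742.9 and 657.1 counts each by alignments and 0 from the FASTQ route, which gave Rpl27 itself 1826 and 1637 counts. Rps2 had the most pseudogene counts of all, 6349 and 5946. These fell mainly on Rps2-ps13 (4341 and 4136) and Rps2-ps10 (1903 and 1679), which kept 2127 and 1844, and 1858 and 1870, by the FASTQ route.

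For Rpl5, a partner of Rpl11 in the complex that carries ribosomal RNA to the large subunit, Gm15500 had 3662 and 3316 counts against 2264 and 1996 for the gene. The FASTQ route gave 2321 and 2176 against 3395 and 3002, so this copy, 100% identical over 99.9% of its length, held counts by both routes. The next copy, Gm15616, had 18.1 and 15.9. Rpl3-ps1, a copy of Rpl3 on chromosome X, had 3296 and 3277 counts by alignments and 2990 and 2861 by the FASTQ route, and Gm48147 had 2 and 4. Gm10275, a copy of Rpl12, had 2349 and 2216 counts by alignments and 1316 and 969.1 by the FASTQ route, with Gm15793 at 4.21 and 4.75 by alignments. For Rpl7a, the counts of Gm8226 were 1178 and 1132 by alignments and 287.8 and 264.6 by the FASTQ route, and those of Gm5619 were 599 and 561.4, and 203.8 and 242.2. Gm16477, named after its values were seen, went the other way, with 468.8 and 417.3 by alignments and 791.6 and 682.3 by the FASTQ route. Gm6472, a copy of Rps7, had 2225 and 2073 counts by alignments and 1309 and 1006 by the FASTQ route, and Gm9493 had 15.2 and 10.9 by alignments. For Rpl3, Rpl5, Rpl12 and Rps7 the next copy was far below the first. Of these first copies, Gm15500, Gm10275 and Gm6472 are annotated as transcribed processed pseudogenes and Rpl3-ps1 as a processed pseudogene. Whether counts on a copy came from RNA of the gene or of the copy was not tested.

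The start of the coding sequence shows how alike gene and copy are. The first 60 coding bases of Rpl27 (mm10, gene at chr11:101442298-101445529) and of its copy Gm11518 (chr11:94037218-94037628), which has 0 differences over 411 coding bases, are given first, read from GENCODE M21 transcripts. Rps23 (gene at chr13:90922958-90924950) follows with Rps23-ps1 (chr3:37714740-37715164), which has 0 differences over 425 aligned bases.
Rpl27: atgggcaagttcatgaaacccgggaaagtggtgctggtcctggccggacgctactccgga
Gm11518: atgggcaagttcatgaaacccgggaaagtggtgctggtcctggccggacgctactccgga
Rps23: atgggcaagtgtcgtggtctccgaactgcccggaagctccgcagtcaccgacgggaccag
Rps23-ps1: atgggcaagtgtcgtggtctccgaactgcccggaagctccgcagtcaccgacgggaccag

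**Figure D2:**
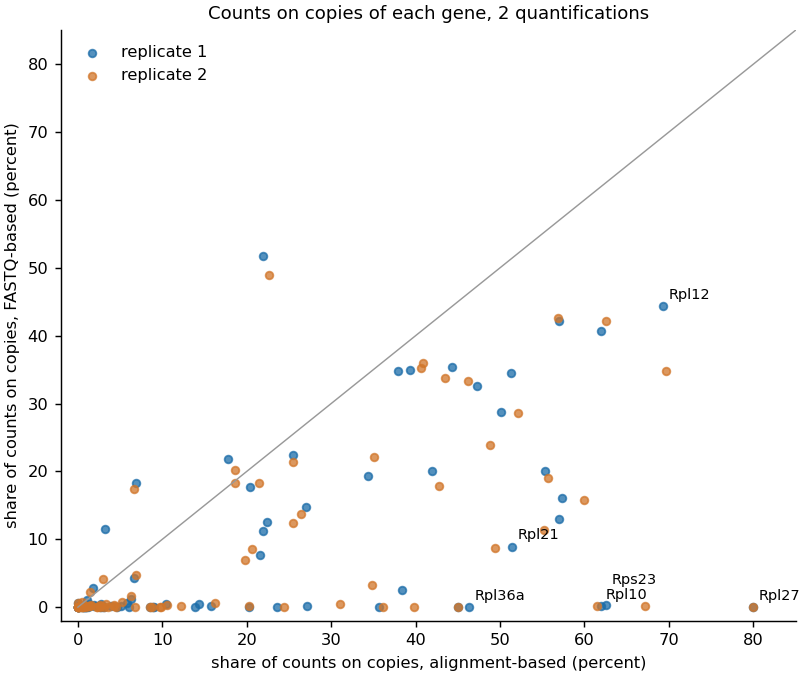
Share of each gene's family counts that lay on copies of any annotation class, by alignments (horizontal, percent) and by the FASTQ route (vertical, percent), for 80 genes in each library; the grey line marks equal shares. Most points lie under the line, with Rpl27 at 79.97% against 0%, and Rpl36 lies above it at 21.9% against 51.8% in replicate 1.

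The 2 quantifications were compared by their ratio of counts in each library, with 0.5 added, among genes with a mean of at least 50 counts by either. Of 80 ribosomal protein genes compared, 3 were at least 2-fold lower by alignments in both libraries (background 5.61% of 15499 genes) and 5 were at least 2-fold higher (background 2.19%). The lower ones were Rpl27, Rps23 and Rpl10. Rps23, a protein of the decoding centre, had 1353 and 1321 counts by alignments and 3623 and 3397 by the FASTQ route, a log2 ratio of -1.42 and -1.36. Rps23-ps1 held 2253 and 2105 counts by alignments and 0 by the FASTQ route, and Rps23-ps2 2.19 and 4.65. Rpl10, a protein that joins the large subunit late in its assembly, had 1545 and 1152 against 4062 and 3577 counts, and its copy Rpl10-ps3 had 2500 and 2356 against 0. With copies added, none of the 80 was 2-fold lower.

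A wider look, at genes apart by over 0.5 on the log2 scale in both libraries, gave 12 genes lower by alignments (background 7.52%) and 9 higher (background 3.14%). The 12 were Rpl5, Rpl10, Rpl11, Rpl12, Rpl21, Rpl27, Rpl27a, Rpl28, Rpl35, Rpl36a, Rpl37 and Rps23. Their own median log2 ratio was -0.80 and -0.78. With copies added by both routes it was 0.04 and 0.02, with a range from -0.10 to 0.18 in replicate 1 and from -0.07 to 0.18 in replicate 2. Between 38.4% and 79.97% of their family counts lay on copies by alignments in replicate 1. Across the 80 genes, the log2 ratio and the share on copies gave Pearson's r as -0.54 and Spearman's rho as -0.57 in replicate 1, both measures using the same alignment-based counts.

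The 9 higher genes included Rpl19, Rpl23a, Rpl36, Rplp1, Rps15, Rps21, Rps28 and Rps29, and adding copies left the 9 high, with a median log2 ratio of 1.14 and 1.34. Rpl36 had 1254 and 1127 counts by alignments against 160.5 and 173.6 by the FASTQ route. Rps29 had 3399 and 3129 against 597 and 523, and Rps21 had 1880 and 1882 against 422 and 428. Rplp1 had 6348 and 5689 against 2135 and 1987, and Rps28 had 2750 and 2529 against 1373 and 897.7. These mRNAs are short: the most-counted transcripts, by alignments, of the 5 genes past 2-fold range from 382 to 499 bases. Of 120 protein-coding genes with a main transcript of at most 500 bases, 34.2% were at least 2-fold higher by alignments, and of 13333 longer ones 0.323%. Among ribosomal protein genes these were 5 of 22 and 0 of 58. The FASTQ route subtracts a median of 352.2 and 356.2 bases from the length of long transcripts to get the effective length, the alignment route 99, and the part of this in the count ratios was not tested.

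**Figure D3:**
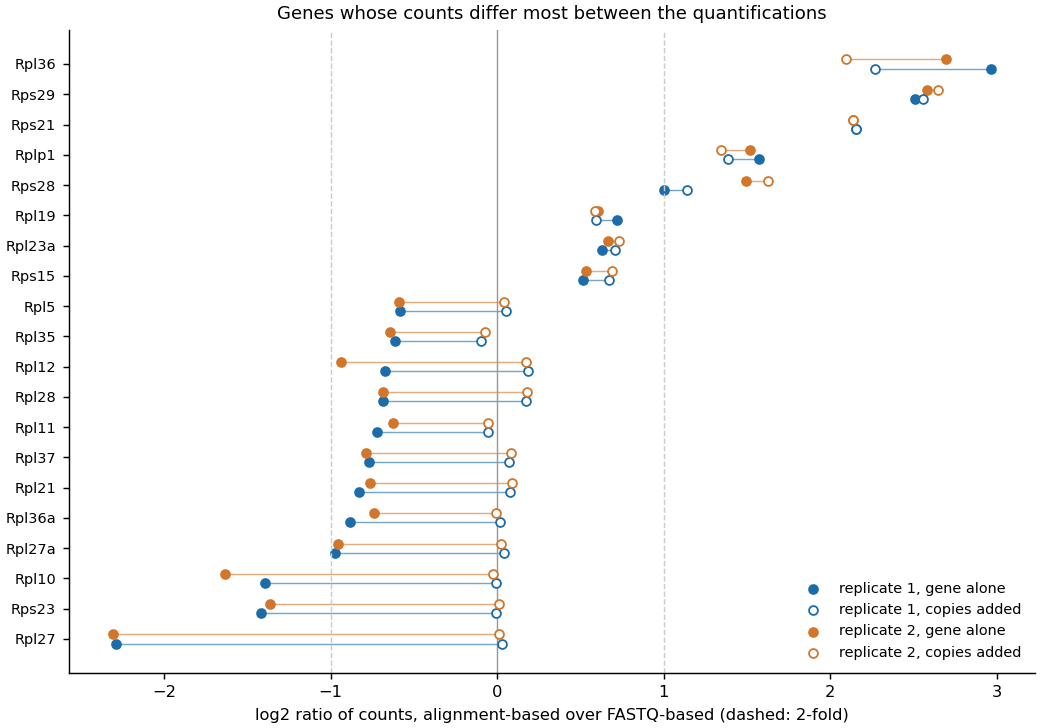
Log2 ratio of alignment-based to FASTQ-based counts for 20 of the genes apart by over 0.5 in both libraries (blue, replicate 1; orange, replicate 2), for the gene alone (filled) and with its copies added (open); dashed lines mark 2-fold. The 12 genes left of 0 move to between -0.10 and 0.18 once copies are added, while the 8 on the right stay above 0.5.

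In TPM, 34 of 80 genes were at least 2-fold lower by alignments (background 15.5% of 18483 genes) and 0 were higher in both libraries (background 3.31%). TPM carries a shift of all genes, with a median log2 ratio of -0.63 in each library, against -0.91 and -0.93 for the ribosomal protein genes. Relative to that shift 9 were lower (background 7.54%) and 2, Rps29 and Rpl36, were higher (background 3.75%). The furthest apart after Rpl27 (29.98 and 28.80 against 316.8 and 310.8 TPM) was Rpl27a, with 66.4 and 68.2 against 541.6 and 533.3 TPM. Rpl10 (99.5 and 81.7 against 533.1 and 501.7 TPM), Rps23 (145.0 and 154.0 against 656.0 and 670.9) and Rpl37 (129.8 and 126.4 against 546.7 and 552.1) came next. Rpl5, Rpl21 and Rpl31 followed at log2 ratios of -1.93, -1.77 and -1.71 in replicate 1. At the other end Rpl36 had 203.7 and 197.0 against 97.5 and 114.4 TPM, and Rps29 538.3 and 533.5 against 349.9 and 332.9. Rps21, Rps3, Rpl17, Rplp2 and Rpl7l1 had log2 ratios from -0.11 (Rpl7l1) to 0.27 (Rps21) in replicate 1, and Rps28 had -0.24 and 0.73.

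The 2 libraries were close in this gene family. Genes with a mean of at least 100 expected counts were compared by an exact two-sided binomial test on TMM-scaled counts, with Benjamini-Hochberg adjustment over 12881 genes. This compares the reads of 2 libraries, not conditions. Of 80 ribosomal protein genes tested, 6 were called at an adjusted p under 0.05, 1 higher and 5 lower in replicate 2, against a background of 11.8%. None was also 2-fold apart (background 0.303%). The median log2 ratio was 0.0012, against 0.00068 for all genes tested, and 90% of ribosomal protein genes lay within 0.1 of 0 on the log2 scale against 63.5% of all genes. The SD of their log2 ratios was 0.0761 against 0.312, and against 0.297 over the 10599 genes in the same range of mean counts. That range runs from 204.5 to 8520 counts, and genes were not matched by count within it. The 63.5% is over all genes tested, from a mean of 100 counts up. Markers of other cells did differ. Choroid plexus genes summed to 15.3 and 358.7 TPM (8 of 9 higher in replicate 2), of which Ttr alone had 8.02 and 340.1. Of the 4 choroid plexus genes tested, 2 were called higher. Myelin genes summed to 213.1 and 360.8 TPM (10 of 11 higher) and red blood cell genes to 957.9 and 566.5 (6 of 7 lower). No gene of these lists was at 0 in both libraries. The part of these markers in the calls was not tested. Hippocampal neuron genes summed to 2411 and 2597 TPM, with 5 of 8 called higher.

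The pair of largest differences and the only higher call were X-linked. Rps4x, the X-linked gene of a small subunit protein, had 5858 and 4374 counts and a log2 ratio of -0.31 (95% counting interval -0.37 to -0.25, adjusted p = 1.39e-24, exact binomial test). Rpl10 had 1545 and 1152 counts and -0.31 (-0.42 to -0.20, adjusted p = 1.26e-06). Rpl36a had 840.8 and 904.3 counts and 0.22 (0.08 to 0.35, adjusted p = 0.019). Rpl39, the remaining X-linked gene, had 2108 and 1881 counts and -0.05 (-0.14 to 0.04, adjusted p = 0.575) and was not called. Xist and all 4 Y-linked genes looked at (Ddx3y, Eif2s3y, Kdm5d and Uty) set replicate 2 apart, and the part of this in these calls was not tested. Of 417 X-linked protein-coding genes tested, 42 were called higher and 79 lower. The autosomal calls were small: Rps19 at -0.13 (adjusted p = 0.0448), Rpl31 at -0.13 (adjusted p = 0.0144) and Rpl41 at -0.07 (adjusted p = 0.0152).

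Adding the reads of copies left 2 of 80 genes called (background 11.7%), both lower in replicate 2. Rps4x moved to -0.03 (95% counting interval -0.08 to 0.02), since its copies had 79.1 counts in replicate 1 and 999.2 in replicate 2. Rps4x-ps went from 2.80 to 285.0 counts, Gm13680 from 7.28 to 250.2 and Gm9616 from 60.9 to 457.7. The mice are hybrids and reads were quantified against mm10. The part of strain alleles in the split of counts between genes and copies was not tested. Rpl36a moved to 0.05 (-0.05 to 0.15), Rps19 to -0.05 (-0.13 to 0.03) and Rpl31 to -0.05 (-0.12 to 0.02). Rpl10 moved to -0.09 (-0.16 to -0.03, adjusted p = 0.0494) and Rpl41 stayed at -0.07 (adjusted p = 0.0137). By the FASTQ route 7 of 80 genes were called (background 11.9%), 4 higher and 3 lower, and 3 with copies added, all lower (background 11.9%). Rps4x was at -0.53 alone and -0.22 with copies by that route, so its call held there (adjusted p = 1.88e-11). Rps28 was at -0.50 by the FASTQ route and at -0.01 by alignments.

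**Figure D4:**
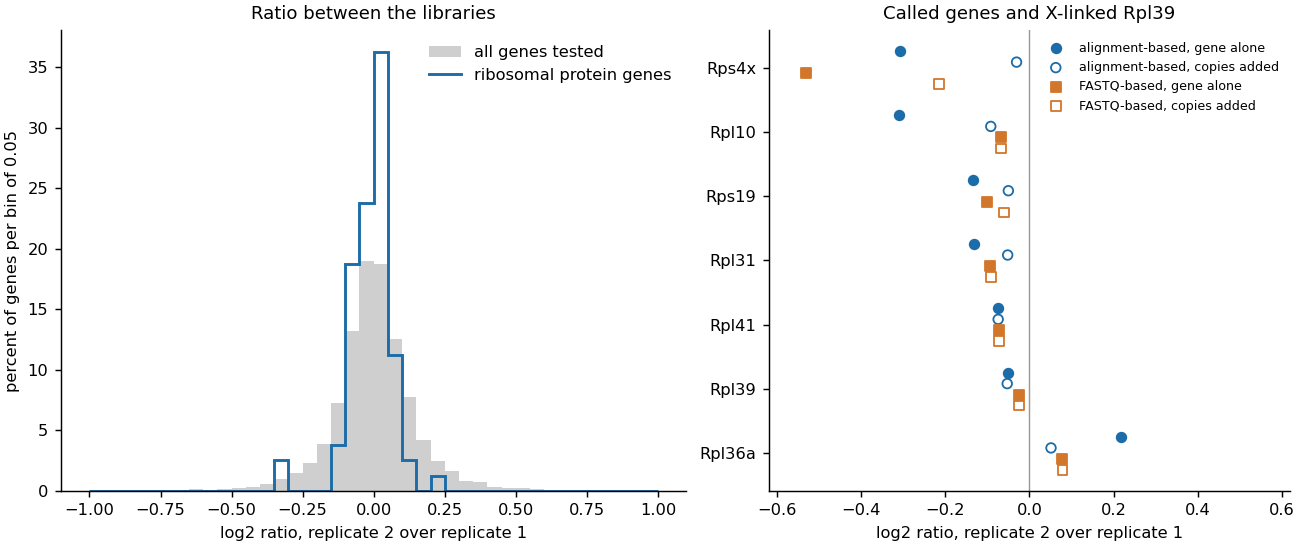
Left, distribution of the log2 ratio of replicate 2 to replicate 1 in bins of 0.05 for all 12881 genes tested (grey) and 80 ribosomal protein genes (blue line), cut at 1 on either side. Right, the same ratio for the 6 called genes and X-linked Rpl39, by alignments (circles) and FASTQ route (squares), for the gene alone (filled) and with copies added (open); Rps4x moves from -0.31 to -0.03 by alignments and from -0.53 to -0.22 by the FASTQ route.

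Counts on copies of 1 gene could also shift in opposite directions between libraries while the family total stayed close. The cause of such shifts was not tested. Rpl21 had 2206 and 2102 counts of its own, and its copies together 2331 and 2056. Among them Gm10163 had 1490 counts in replicate 1 and 0.03 in replicate 2, whereas Gm10240 and Gm13370 each had 281.6 and 977. The summed log2 ratio of Rpl21 and its copies was -0.01 (95% counting interval -0.07 to 0.05). The FASTQ route gave Gm10163 145.2 and 0 counts, and Gm10240 110.1 and 153.9. Gm10163 (chr9:88390837-88391317) and Gm10240 (chr15:68309819-68310301) each differ from Rpl21 (gene at chr5:146832890-146837032) at 2 coding bases, 1 of them shared and in the window of coding bases 306 to 365 below. Rps4x-ps (chr5:3875362-3876154) differs from Rps4x (gene at chrX:102184941-102189394) at 17 of 790 aligned coding bases and Gm9616 (chr13:3298887-3299667) at 15 of 788. The window of Rps4x holds coding bases 3 to 62. Capitals mark a base that differs in any of the sequences shown.
Rpl21: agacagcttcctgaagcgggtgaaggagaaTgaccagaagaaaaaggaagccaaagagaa
Gm10163: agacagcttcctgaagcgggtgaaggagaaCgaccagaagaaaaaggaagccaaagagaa
Gm10240: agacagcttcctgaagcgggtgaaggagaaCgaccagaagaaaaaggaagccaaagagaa
Rps4x: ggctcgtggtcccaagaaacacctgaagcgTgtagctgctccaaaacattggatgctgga
Rps4x-ps: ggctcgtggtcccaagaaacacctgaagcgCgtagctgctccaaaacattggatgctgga
Gm9616: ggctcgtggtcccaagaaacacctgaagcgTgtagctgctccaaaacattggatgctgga

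Of the 7 paralogues, 2 had a gene total near that of their partner in alignment-based TPM, 2 were at under 10% of the pair and 3 at or near 0. A gene total sums all transcript rows, and for Rpl22l1 most of it lay on rows without a coding annotation, as given below. Rpl36al, on chromosome 12, made up 53.6% and 49.1% of the pair with X-linked Rpl36a in TPM (51.3% ± 3.16), at 108.9 and 105.6 against 94.4 and 109.5 TPM. With the reads of the Rpl36a copy Rpl36a-ps2 (718.8 and 568.3 counts) and its lesser copies added, the share was 37.5% ± 1.05. Both encode the same protein: the translated reading frames, 106 residues each, were 100% identical, while 39 of 321 coding bases differed.

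Rpl22l1, whose product is 70.3% identical to Rpl22 and can replace it on the ribosome, had 98.7 and 97.1 TPM against 126.9 and 134.3 for Rpl22. Its share of the pair was 42.9% ± 1.26, or 25.1% ± 0.296 in counts not divided by length, as its annotated transcripts are shorter than the 2051 bases of Rpl22. These are gene totals: protein-coding rows held 8.62% and 15.1% of the TPM of Rpl22l1 by alignments, and rows of processed transcripts without a coding annotation 85.9% and 82.1%. For Rpl36a, protein-coding rows held 91.1% and 91.2% by alignments and 9.23% and 24.8% by the FASTQ route. Rpl7l1, a more distant relative of Rpl7 (40.7% identity), made up 7.53% ± 0.603, at 24.4 and 25.3 against 318.5 and 292.6 TPM. Rps27l, which responds to p53 in other cells, made up 5.86% ± 0.188 of its pair with Rps27 (23.4 and 24.9 against 384.7 and 390.1 TPM). Its protein is 96.4% identical to that of Rps27, with 3 of 84 residues different. Both libraries gave the same order in the pairs of Rpl22l1, Rpl7l1 and Rps27l, but not in that of Rpl36al (53.6% and 49.1%).

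Rpl3l, the form of Rpl3 known from heart and skeletal muscle, had 5 counts in each library (exact 95% interval 1.62 to 11.7) and 0.28 and 0.22 TPM, 0.106% ± 0.0144 of its pair. Rpl39l, known from testis, had 1 count in each (0.0253 to 5.57), 0.0455% ± 0.0101 of the pair with Rpl39 at 190.1 and 182.5 TPM. Rpl10l, a testis form of X-linked Rpl10, had 0 counts in both (0 to 3.69), and the limit of 3 counts used for a count of 0 is 9.36e-06% and 1.01e-05% of all counts. The intervals cover counting error only. The coding sequences of Rpl39 and Rpl39l differ at 23 of 156 bases and the proteins at 3 of 51 residues, and bases that differ are in capitals (Rpl39 gene at chrX:37082520-37085402, Rpl39l at chr16:10170226-10174911).
Rpl39: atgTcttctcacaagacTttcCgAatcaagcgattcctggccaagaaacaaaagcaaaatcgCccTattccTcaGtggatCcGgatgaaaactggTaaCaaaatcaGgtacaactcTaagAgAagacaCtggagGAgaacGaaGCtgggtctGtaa
Rpl39l: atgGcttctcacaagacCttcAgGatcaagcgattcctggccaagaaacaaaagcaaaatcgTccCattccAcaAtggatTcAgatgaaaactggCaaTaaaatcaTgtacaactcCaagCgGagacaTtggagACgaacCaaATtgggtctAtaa

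**Figure D5:**
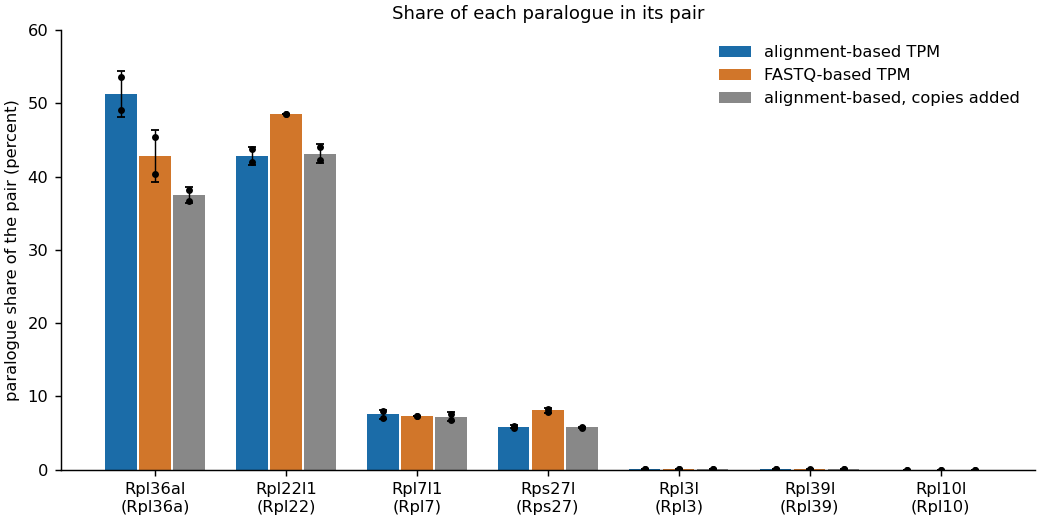
Share of each paralogue in the sum of its pair (percent; partner in brackets), as mean with SD over the 2 libraries and a dot per library, from alignment-based TPM, FASTQ-based TPM and alignment-based levels with copies added. Rpl36al and Rpl22l1 stand between 37.5% and 51.3%, Rpl7l1 and Rps27l under 10%, and the other 3 at or near 0. Shares are of gene totals over all transcript rows, coding or not.

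Transcript rows split the genes less firmly than gene totals. The 83 genes have 500 annotated transcripts, 234 of them protein-coding and 176 annotated as retained introns. Protein-coding rows held 82.0% and 82.2% of the genes' TPM by alignments and 69.1% and 67.3% by the FASTQ route, and retained-intron rows 9.16% and 9.27% against 17.4% and 18.7%. The leading protein-coding row was the same by both routes in 48 of 80 genes, held over 90% of the TPM in 30 and under 50% in 18. It held the least in Rps16, with 1.41% and 1.93%, where retained-intron rows of 518 and 628 bases took 98.6% and 98.1% and the protein-coding row is 1109 bases long. In Rps26 it held 3.49% and 1.99% by alignments and 54.0% and 44.6% by the FASTQ route. In Rps20 it held 5.52% and 5.603%, in a row of 3706 bases beside retained-intron rows of 512 and 582 bases. In Rpl35 it held 4.97% and 7.02%, with 94.5% and 91.8% on a row of 541 bases without a coding annotation. The class of a row is the annotation's, and its share depends on the quantification, so no statement on splicing is made from it. Leading rows were counted for this family only, with no share over all genes beside them.

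Calls between the libraries were also counted for lists of related genes. Of 16 other genes listed as having TOP mRNAs, mostly translation genes, 0 were called in either direction. Of 24 ribosome assembly genes 0 were called higher and 1 lower. Of 77 mitochondrial ribosomal protein genes tested, 1 was called higher and 0 lower, and of the 4 ribosome genes outside the symbol rule 0 were called. These counts read against the same background of 11.8%, taken over genes of all count levels tested. The lists of 4, 16 and 24 genes are small, and no background matched by count was made for any of these lists. Genes of the set lie on 19 chromosomes, with 14 on chromosome 7 and 4 on X. In 29 of them the gene span holds 56 annotated small nucleolar RNA genes, RNAs that guide ribosomal RNA modification. The median level was 220.2 TPM with such a gene inside and 230.9 without.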

How the data were processed

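Per the deposited file descriptions, reads were quantified against mm10 with the GENCODE M21 annotation. The quantification software and the strand setting were not given in the sources used here. Deposited gene and transcript tables hold expected counts, not normalized, and TPM, scaled over all rows. A further table deposited by the authors holds estimated counts and TPM made from the FASTQ file, summed here per gene. Rows named by number (26248) and 97 other rows, mostly spike-ins, were left out.

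Expected counts were rounded and scaled by TMM (edgeR 4.0.16, R 4.3.3), with a prior count of 0.5 for log2 ratios. Size factors of DESeq2 1.42.0 were an alternative. Intervals are exact (Clopper-Pearson or Poisson, 95%) and cover counting error only. The level with copies added is a gene's TPM times the ratio of family to own counts. It treats all counts on copies as the gene's, which was not tested. Copies were matched with BLAST 2.17.0, and other steps used Python 3.11.15, pandas 2.3.3, scipy 1.17.1 and Biopython 1.88. Simulated counts were drawn with counting (Poisson) spread only, which the binomial test assumes, with 12874 genes tested. On them the test called 50% of genes changed 1.2-fold, 93.9% of those changed 1.5-fold and 100% of those changed 2-fold. It called 0.0631% of unchanged genes there, a rate that does not cover differences between animals, tissue pieces or read assignment.

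Members, lists and tests were chosen with earlier results of these data known. Named genes were the 6 highest and 6 lowest, all paralogue pairs, X-linked members, up to 8 in each direction furthest apart between quantifications, up to 5 called in each direction, the 8 with the most pseudogene counts with their 2 highest pseudogenes, 5 with the smallest leading isoform share and the non-member ribosome genes. Some genes this rule names are not reported here. Copies with opposite shifts in counts between libraries were named after their values were seen. So were the genes in the wider comparison of quantifications and those printed for their start sites. The p-values measure the spread of counting between 2 libraries only.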

Additional observations from a re-analysis of the deposited data

How the results depend on the processing

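The number of members called between the libraries was 5 to 7 under other scalings, a lower count minimum and FASTQ-based counts, although the latter split 4 higher and 3 lower in place of 1 and 5. It was 3 over autosomal members, 2 with copies added and 3 with copies added by the FASTQ route (alternatives added after seeing the data). Of 42 recomputed ratios of the 7 called or X-linked members, 29 kept their call status, 13 lost it and 0 changed sign. The median TPM was 428.0 from FASTQ-based TPM and 484.9 rescaled over nuclear protein-coding genes. The SD of log2 TPM was 0.654 from FASTQ-based TPM, 0.789 with a pseudocount of 1 TPM and 0.536 with copies added. Members 2-fold apart between quantifications fell from 8 to 5 in counts with copies added and from 34 to 11 in TPM when centred on all genes. The share on pseudogenes was 8.97% from FASTQ-based counts and 21.1% with copies of any class. Shares of a pair from FASTQ-based TPM were 48.5% (Rpl22l1), 42.8% (Rpl36al), 0.0302% (Rpl39l) and 8.09% (Rps27l). From counts not divided by length they were 25.1% (Rpl22l1), 15.96% (Rpl7l1) and 9.20% (Rps27l), and with copies added 37.5% (Rpl36al) and 0.0647% (Rpl3l). For the changes between quantifications the cause was not tested. Each library alone gave a median of 222.4 or 225.3 TPM, 34 or 36 members 2-fold lower in TPM and, for replicate 1 alone, 1 higher (Rpl36). Rpl39l and Rpl3l, at 1 and 5 counts, are limited by depth.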
